A study of Mus musculus with 12 samples.

Results

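The expression of 9 genes used to describe neural progenitors was examined in mouse epiblast stem cells (EpiSCs), which are pluripotent cells of the post-implantation type. The genes were Olig1, Olig2, Sox1, Pax6, Pax3, Lhx2, Hes5, Nes and Npy. Every probe set whose only gene symbol in the platform annotation was one of these was taken, which gave 19 of the 45101 probe sets, for 9 of the 18193 genes that the array measured with a probe set of their own. The set was chosen by the signals in haploid against diploid cells: Olig1 and Npy had the largest decreases between the ploidies, and the other genes were added as neural progenitor genes with those results known. Differences between the ploidies are therefore given for these genes as a description, with no test. Of the 9 genes, 7 encode transcription factors, while Nes encodes an intermediate filament protein and Npy a neuropeptide.

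Total RNA of 4 EpiSC lines was measured on 12 Affymetrix mouse arrays, with 3 arrays per line that the labels call biological replicates. The lines were haploid EpiSC-2 and haploid EpiSC-1, both of strain 129Sv, and diploid EpiSC-2 and diploid EpiSC-1, both of strain B6D2F1. The culture medium of all lines was N2B27 to which bFGF and Activin A had been added, and the labels name no further treatment before harvest. Because each ploidy had its own strain, an effect of ploidy and an effect of strain cannot be told apart. The numbers 1 and 2 in the names were taken to mark different lines within a ploidy. A shared number does not link a haploid to a diploid line, because their strains differ. The labels do not say whether replicates came from separate cultures, so p-values of comparisons between lines measure the spread between arrays of a line. The p-values of haploid minus diploid come from a fit that also takes in the spread between lines, with only 2 lines per ploidy.

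During neural induction, Sox1 marks the earliest committed neuroectoderm, and Pax6 and Lhx2 are expressed soon afterwards in the anterior neural plate and eye field. Pax3 marks the dorsal neural tube and the neural crest, Olig2 specifies the ventral progenitors of motor neurons and oligodendrocytes, and Olig1 acts in oligodendrocyte maturation. Hes5 is a target of Notch signalling that keeps progenitors undifferentiated, and nestin, the product of Nes, is a cytoskeletal protein of neural progenitors that other proliferating cells also make. EpiSCs can be differentiated to such progenitors in culture, and bFGF with Activin A holds them in the pluripotent state.

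Median signals ran from 63.4 to 76.3 over the arrays, and a mean signal of 62.6, the median over all probe sets, was used as the lower limit for testing. Of the 19 probe sets, 6 reached it: 1 each of Olig1, Npy and Pax3, and all 3 of Nes. Olig1, Npy and Pax3 reached it through the ploidy in which they were high. The other 13 probe sets had low signals in at least 1 ploidy. Sox1 1438729_at, Pax6 1419271_at, Pax3 1441743_at and Pax3 1430335_a_at were above 62.6 in both haploid lines and missed the limit through low diploid signals. Low signals have large relative errors, so the folds of the 13 between the ploidies are uncertain in size. The 9 markers of EpiSCs had group means at or above 62.6 in every line. In haploid EpiSC-1, however, Otx2 (74.0) and Fgf5 (86.9) were only just above it. In the other lines Otx2 averaged 2133 to 3962 and Fgf5 2332 to 3621. The summed signal of the 9 markers was 39802 to 41848 in haploid EpiSC-2, 27339 to 27627 in haploid EpiSC-1, 50667 to 51884 in diploid EpiSC-2 and 64374 to 68478 in diploid EpiSC-1. The 12 markers of fibroblast feeder cells summed to 29578 to 30146 in haploid EpiSC-2, 26600 to 27348 in haploid EpiSC-1, 2399 to 2548 in diploid EpiSC-2 and 1517 to 1588 in diploid EpiSC-1. Of these markers, 11 had a group mean at or above 62.6 in each haploid line, against 8 in diploid EpiSC-2 and 4 in diploid EpiSC-1, and none was at 0. The 11 neuron markers summed to 13273 to 13508 in haploid EpiSC-2, 9064 to 9555 in haploid EpiSC-1, 23396 to 25722 in diploid EpiSC-2 and 14839 to 16311 in diploid EpiSC-1. Of the neuron markers, the group mean was at or above 62.6 for 8 in haploid EpiSC-2, 7 in haploid EpiSC-1, 9 in diploid EpiSC-2 and 8 in diploid EpiSC-1, and none was at 0. The summed EpiSC and neuron markers were thus lower and the summed feeder markers higher in the haploid lines, but the count of neuron markers above 62.6 did not follow ploidy. Of the EpiSC markers, 4 were called lower and 1, Sox2, higher in the haploid minus diploid test below. The order of the neuron sum rested largely on Nefl. Its means were 5520 in haploid EpiSC-2, 2240 in haploid EpiSC-1, 12280.5 in diploid EpiSC-2 and 12432 in diploid EpiSC-1. Between the ploidies, Nefl (-1.81, limma adjusted p = 5.12e-04) and Snap25 (-1.79, limma adjusted p = 0.0283) were called lower in haploid cells. The neuron genes Tubb3, Map2, Elavl4, Stmn2, Nefm and Elavl3 did not pass (log2 differences of 0.02, -0.02, -0.09, 0.28, 2.58 and -1.35). Stmn2 averaged 9942 in diploid EpiSC-2 and 2113 in diploid EpiSC-1, with the haploid lines between them. Dcx, Rbfox3 and Syp were under the limit for testing. The part of the EpiSC, feeder and neuron markers in the differences below was not tested. In bulk RNA, fewer cells of a type and less RNA per cell cannot be told apart.

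Olig1 and Npy were high in both diploid lines and near or below the median array signal in both haploid lines, while 6 probe sets of Pax3, Sox1, Pax6 and Lhx2 had the opposite order. In all, 6 of the 19 probe sets had every haploid array above every diploid array, beside 10.7% of all 34945 probe sets with 1 gene symbol. Another 2 had every haploid array below every diploid array, beside 7.80% of all probe sets. The genes were chosen with this comparison known, and nothing is read from these shares. Nes was at similar levels in both ploidies, and Hes5 was low in all lines.

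**Figure D1:**
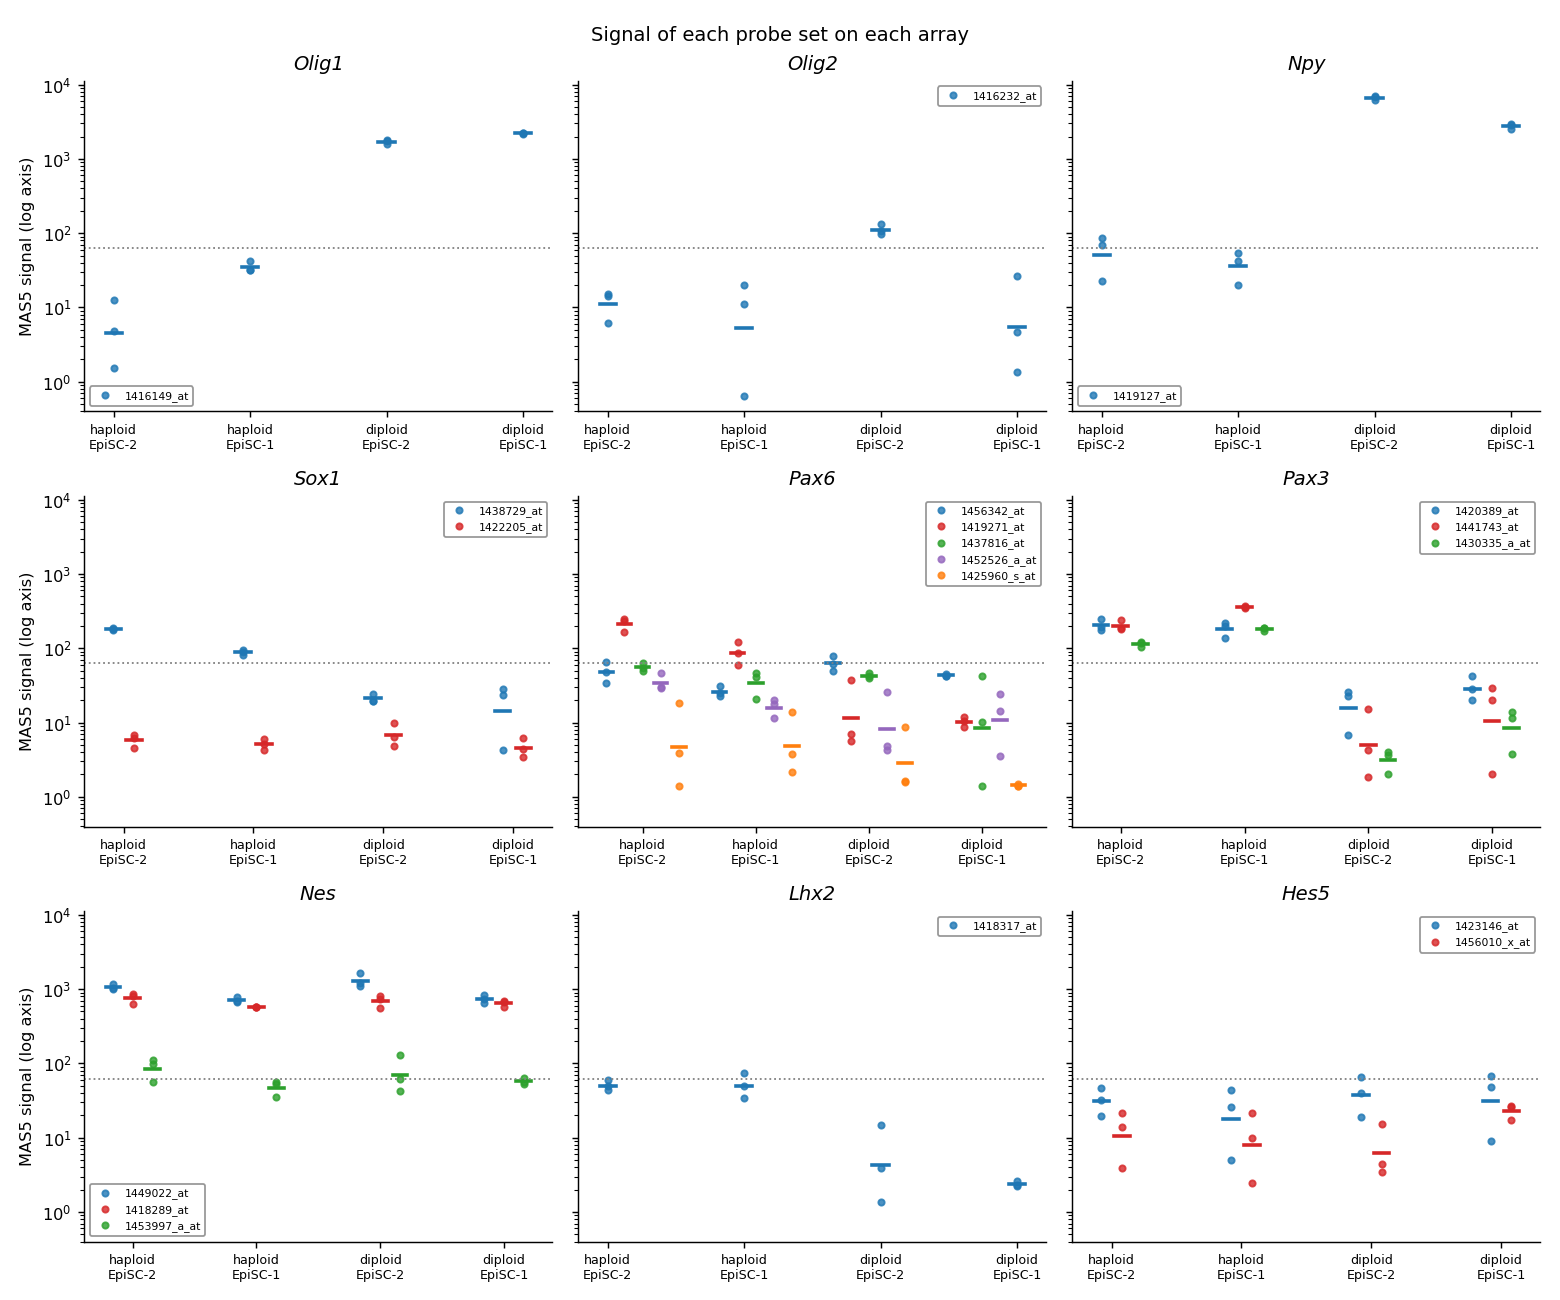
Signals of the 19 probe sets in every array, on a log axis. Points are arrays and bars are the geometric means of the 3 arrays of a line, the dotted line marks a signal of 62.6, and the lines run from haploid EpiSC-2 and haploid EpiSC-1 to diploid EpiSC-2 and diploid EpiSC-1. Olig1 and Npy read at most 87.0 on the haploid arrays and at least 1597 on the diploid arrays, and the 3 Pax3 probe sets at least 105 on the haploid arrays and at most 42.3 on the diploid arrays.

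Olig1 (Entrez 50914, chromosome 16), a basic helix-loop-helix factor of the oligodendrocyte lineage, was measured by probe set 1416149_at. Its signals were 4.85, 1.53 and 12.6 in haploid EpiSC-2, 31.9, 41.8 and 31.4 in haploid EpiSC-1, 1756, 1597 and 1777 in diploid EpiSC-2, and 2181, 2214 and 2223 in diploid EpiSC-1. The 4 lines formed 4 separate levels, with no overlap between any neighbouring pair of lines. The means were 6.31 ± 5.65 in haploid EpiSC-2, 35.0 ± 5.85 in haploid EpiSC-1, 1710 ± 98.7 in diploid EpiSC-2 and 2206 ± 22.6 in diploid EpiSC-1 (SD, n = 3 each). The haploid minus diploid difference was -7.27 on the log2 scale, and -5.88 when 16 was added to every signal to damp the low values. Set against the mean of the diploid lines, haploid EpiSC-2 differed by -8.74 and haploid EpiSC-1 by -5.80 on the log2 scale. The haploid lines differed by -2.94 (EpiSC-2 minus EpiSC-1), between signals that were all below 62.6.

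Npy (Entrez 109648, chromosome 6) encodes neuropeptide Y, a secreted peptide of neurons and sympathetic cells. Probe set 1419127_at read 87.0, 68.8 and 22.5 in haploid EpiSC-2, 20.0, 42.6 and 54.7 in haploid EpiSC-1, 6149, 6761 and 7008 in diploid EpiSC-2, and 2903, 2534 and 2829 in diploid EpiSC-1. The haploid lines overlapped, and both diploid lines were far above them and did not overlap each other. The means were 59.4 ± 33.2 in haploid EpiSC-2, 39.1 ± 17.6 in haploid EpiSC-1, 6639 ± 442 in diploid EpiSC-2 and 2755 ± 195 in diploid EpiSC-1 (SD, n = 3 each). The haploid minus diploid difference was -6.64 on the log2 scale, and -6.14 with 16 added to every signal. The order of the diploid lines was the reverse of that of Olig1: diploid EpiSC-2 had more Npy signal and less Olig1 signal than diploid EpiSC-1.

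Olig2 (Entrez 50913, chromosome 16) lies next to Olig1 in the genome and acts in motor neuron and oligodendrocyte specification. Probe set 1416232_at gave 6.20, 14.1 and 15.2 in haploid EpiSC-2, 0.634, 11.0 and 20.2 in haploid EpiSC-1, 96.0, 107 and 134 in diploid EpiSC-2, and 26.7, 1.37 and 4.64 in diploid EpiSC-1. Only the diploid EpiSC-2 arrays stood apart, and those of diploid EpiSC-1 lay in the range of the haploid lines. The haploid minus diploid difference of -1.71 on the log2 scale therefore held for 1 of the 2 diploid lines, unlike that of Olig1, which held for both.

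Among the early neuroectoderm factors, Sox1 (Entrez 20664, chromosome 8), a SoxB1 factor, had 1 probe set with higher signals in haploid cells. Probe set 1438729_at read 179, 185 and 183 in haploid EpiSC-2, 95.4, 81.0 and 88.5 in haploid EpiSC-1, 19.7, 24.4 and 19.7 in diploid EpiSC-2, and 4.25, 28.6 and 23.2 in diploid EpiSC-1. Both haploid lines lay above both diploid lines, the haploid lines did not overlap each other, and the diploid lines did. The haploid minus diploid difference was 2.87 on the log2 scale and 2.04 with 16 added. The other Sox1 probe set, 1422205_at, did not show this: it read 3.45 to 9.74 over the 12 arrays, with a difference of -0.03.

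Pax6 (Entrez 18508, chromosome 2), a paired-box factor of the forebrain and eye, had 5 probe sets that disagreed. Probe set 1419271_at read 251, 235 and 166 in haploid EpiSC-2, 60.4, 120 and 85.7 in haploid EpiSC-1, 6.97, 5.71 and 37.9 in diploid EpiSC-2, and 10.6, 8.73 and 11.7 in diploid EpiSC-1. On this probe set the haploid arrays lay above all diploid arrays, by 3.64 on the log2 scale, and by 2.45 with 16 added. On 1456342_at, which had the highest mean log2 signal of the 5, the order was not that: it read 66.1, 33.8 and 47.7 in haploid EpiSC-2, 22.6, 24.8 and 31.3 in haploid EpiSC-1, 61.1, 79.6 and 50.1 in diploid EpiSC-2, and 41.8, 45.5 and 43.0 in diploid EpiSC-1. The ploidies overlapped on it, with a log2 difference of -0.57. They also overlapped on 1437816_at, 1452526_a_at and 1425960_s_at, with log2 differences of 1.18, 1.33 and 1.23 and signals no higher than 63.1. All 5 Pax6 probe sets were under the limit for testing.

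Lhx2 (Entrez 16870, chromosome 2), a LIM-homeodomain factor of the eye field and forebrain, was low throughout. Probe set 1418317_at read 49.1, 44.0 and 59.3 in haploid EpiSC-2, 33.8, 75.2 and 49.7 in haploid EpiSC-1, 15.1, 3.90 and 1.38 in diploid EpiSC-2, and 2.24, 2.61 and 2.32 in diploid EpiSC-1. The ploidies did not overlap, but 11 of the 12 signals were below 62.6. The log2 difference of 3.97 shrank to 1.73 with 16 added to every signal. The 2 lines of each ploidy overlapped.

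Pax3 (Entrez 18505, chromosome 1), a paired-box factor of the dorsal neural tube and neural crest that is also used in muscle progenitors, was higher in haploid cells on all 3 of its probe sets. Probe set 1441743_at read 187, 238 and 183 in haploid EpiSC-2, 366, 355 and 348 in haploid EpiSC-1, 15.3, 4.22 and 1.88 in diploid EpiSC-2, and 2.03, 28.8 and 20.1 in diploid EpiSC-1. Probe set 1430335_a_at read 119, 105 and 122 in haploid EpiSC-2, 170, 187 and 187 in haploid EpiSC-1, 2.05, 3.66 and 4.02 in diploid EpiSC-2, and 13.9, 11.7 and 3.74 in diploid EpiSC-1. On both, haploid EpiSC-1 lay above haploid EpiSC-2 without overlap. Probe set 1420389_at, which had the highest mean log2 signal over all 12 arrays but not the highest haploid signals, read 177, 192 and 245 in haploid EpiSC-2, 139, 202 and 222 in haploid EpiSC-1, 25.6, 22.6 and 6.87 in diploid EpiSC-2, and 42.3, 28.1 and 20.0 in diploid EpiSC-1. On it the haploid lines overlapped, so the probe sets agreed on the order of the ploidies and not on the order of the haploid lines. The haploid minus diploid differences were 5.21, 4.81 and 3.18 on the log2 scale, in the order given, and 3.44, 2.86 and 2.43 with 16 added.

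Hes5 (Entrez 15208, chromosome 4), a repressor induced by Notch, was low in all lines. Probe set 1423146_at ranged from 4.94 to 47.0 over the haploid arrays and from 9.12 to 66.8 over the diploid arrays, and 1456010_x_at from 2.48 to 21.7 over the haploid arrays and from 3.48 to 26.6 over the diploid arrays. The log2 differences of -0.52 and -0.36 were smaller than the spread between arrays of a ploidy, and no difference was detectable at these signals.

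Nes (Entrez 18008, chromosome 3) was the only gene of the set with high signals in every line. Probe set 1449022_at read 1001, 1051 and 1180 in haploid EpiSC-2, 786, 677 and 695 in haploid EpiSC-1, 1655, 1201 and 1090 in diploid EpiSC-2, and 731, 840 and 654 in diploid EpiSC-1. Probe set 1418289_at read 849, 803 and 628 in haploid EpiSC-2, 583, 568 and 570 in haploid EpiSC-1, 818, 744 and 563 in diploid EpiSC-2, and 569, 701 and 667 in diploid EpiSC-1. The haploid and diploid ranges overlapped on both, with log2 differences of -0.15 and -0.03. The dimmest probe set, 1453997_a_at, ranged from 34.9 to 110.1 over the haploid arrays and from 41.9 to 131 over the diploid arrays, with a log2 difference of -0.0015.

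**Figure D2:**
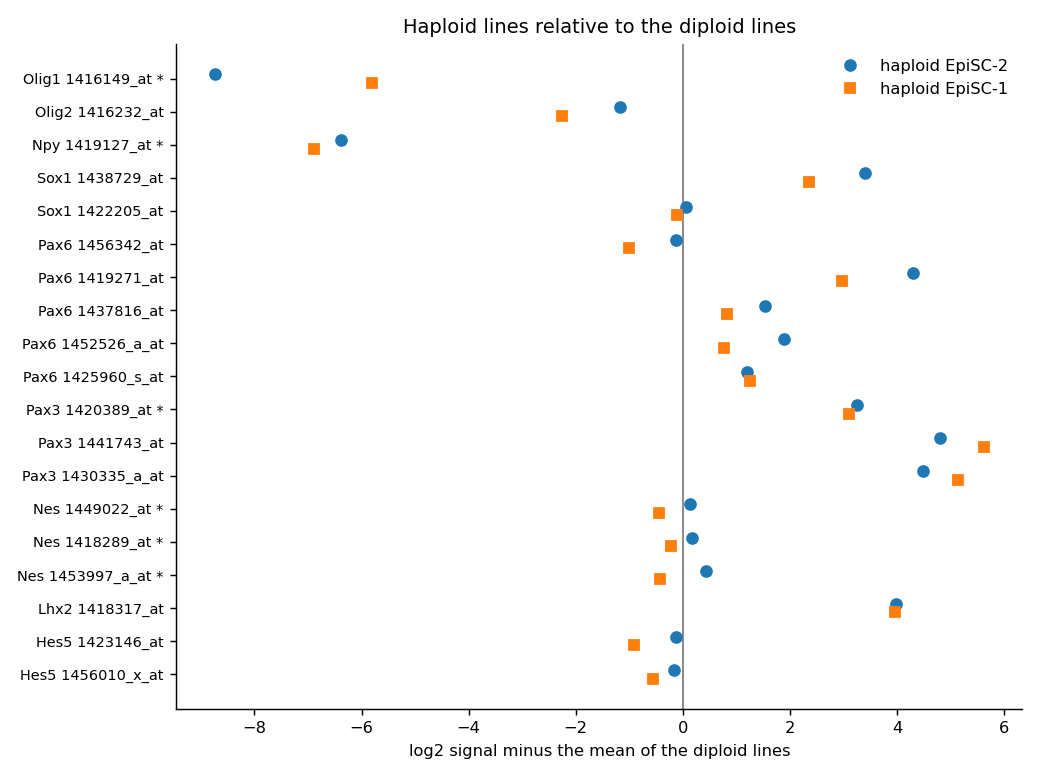
Difference of haploid EpiSC-2 and of haploid EpiSC-1 from the mean of the diploid lines, on the log2 scale, for each probe set. An asterisk marks the 6 probe sets with a mean at or above the limit for testing. Olig1 and Npy lie between -8.74 and -5.80, the 3 Pax3 probe sets between 3.11 and 5.62, and Nes and Hes5 between -0.92 and 0.43.

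The second comparison set the lines of a ploidy against each other. As far as is known, the choice of the genes did not use it. The Olig1 difference between the haploid lines was, however, already known and is not tested. All 12 arrays entered a limma fit of 4 group means over 19837 probe sets, and a Benjamini-Hochberg adjusted p under 0.05 counted as a change. Between haploid EpiSC-2 and haploid EpiSC-1, 2 of the 5 tested probe sets changed, both of Nes, beside 49.5% of all probe sets tested. Between diploid EpiSC-2 and diploid EpiSC-1, 2 of 6 changed, 1 of Npy and 1 of Nes, beside 53.3% of all probe sets. In 2 of these tests the gene lay under the limit in the lines compared, Npy in the haploid lines and Pax3 in the diploid lines, and no call is read from them. About every other probe set of the array thus changed between the lines of a ploidy, and the counts are not read as particular to these genes.

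On 1449022_at, Nes was higher in the line named EpiSC-2 than in that named EpiSC-1 within each ploidy, in 2 separate pairs of lines. The log2 difference was 0.58 ± 0.13 (SE, 95% interval 0.30 to 0.87, limma adjusted p = 0.00205) between the haploid lines, and all 3 arrays of haploid EpiSC-2 were above all 3 of haploid EpiSC-1. It was 0.81 ± 0.13 (0.53 to 1.09, limma adjusted p = 1.27e-04) between the diploid lines, which did not overlap. On 1418289_at it was 0.39 ± 0.13 between the haploid lines (limma adjusted p = 0.0248), and all 3 arrays of haploid EpiSC-2 were above all 3 of haploid EpiSC-1. That call was lost without haploid EpiSC-2 replicate 1 (limma adjusted p = 0.107) or replicate 2 (limma adjusted p = 0.0814), and without haploid EpiSC-1 replicate 2 (limma adjusted p = 0.0577) or replicate 3 (limma adjusted p = 0.0579). It was also lost with no intensity trend in the fit (limma adjusted p = 0.0527). Between the diploid lines 1418289_at differed by 0.12 ± 0.13 (95% interval -0.17 to 0.41, limma adjusted p = 0.470). The dimmest probe set, 1453997_a_at, gave 0.87 ± 0.38 between the haploid lines (limma adjusted p = 0.0736), and 0.28 ± 0.38 between the diploid lines (limma adjusted p = 0.563). Its haploid call was gained without haploid EpiSC-2 replicate 3 (limma adjusted p = 0.0312), without diploid EpiSC-2 replicate 1 (0.0481) and without diploid EpiSC-2 replicate 2 (0.0335). It was gained as well with quantile normalization (limma adjusted p = 0.0498), with centred arrays (0.0333) and with the 6 haploid arrays alone (0.0478), and its diploid difference was -0.18 without diploid EpiSC-2 replicate 2.

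Npy was 2.41-fold higher in diploid EpiSC-2 than in diploid EpiSC-1, with a log2 difference of 1.27 ± 0.40 (SE, 95% interval 0.41 to 2.13, limma adjusted p = 0.0159). It passed in all 21 alternative settings, with adjusted p no higher than 0.0461. Between the haploid lines the difference was 0.51 ± 0.40 (95% interval -0.35 to 1.37, limma adjusted p = 0.316). Both haploid means were under 62.6, and Npy entered this test through its diploid signals, so the haploid difference has no firm value. It was 0.09 without haploid EpiSC-1 replicate 1 (limma adjusted p = 0.875), 0.13 without haploid EpiSC-2 replicate 1, 0.30 without haploid EpiSC-2 replicate 2, 0.81 without haploid EpiSC-1 replicate 3 and 1.10 without haploid EpiSC-2 replicate 3 (limma adjusted p = 0.00679). The Npy differences of the 2 ploidies are between separate pairs of lines, and they were not compared by a test.

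Olig1 was lower in diploid EpiSC-2 than in diploid EpiSC-1 on every array, by 0.37 on the log2 scale (SE 0.49, 95% interval -1.41 to 0.67), and did not pass (limma adjusted p = 0.550). The spread in this fit is shared by all arrays, and the haploid arrays, with signals between 1.53 and 41.8, enter it. A fit on the 6 diploid arrays alone, added after the data had been seen, gave the same difference with a limma adjusted p of 3.72e-04. Pax3 1420389_at did not pass between the haploid lines (0.14 ± 0.43, 95% interval -0.79 to 1.07, limma adjusted p = 0.811). Between the diploid lines all its signals, 6.87 to 42.3, were under the limit, and the difference of -0.86 ± 0.43 (limma adjusted p = 0.110) is not read further.

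The 13 probe sets under the limit were compared only in the fit without it, over 34945 probe sets, where 27.9% changed between the haploid lines and 29.7% between the diploid lines. By limma, 0 of the 13 changed between the haploid lines (adjusted p from 0.103 to 0.997, with 2 under 0.05 before adjustment). The spread in this fit is shared by all arrays, so low diploid signals enter it. The SE was 0.55 for Sox1 1438729_at and 0.84 for Pax3 1441743_at, although the haploid lines did not overlap on either. The 0 calls therefore do not mean that the haploid lines were alike. By limma, 1 of the 13 changed between the diploid lines. This was Olig2, with a log2 difference of 4.33 ± 1.19 (EpiSC-2 minus EpiSC-1, limma adjusted p = 0.0110) whose size rests on diploid EpiSC-1 signals of 1.37 to 26.7. With 16 added to every signal, an alternative added after the data had been seen, it was 2.36 (limma adjusted p = 9.42e-05). In that setting 29.2% of all probe sets changed between the haploid lines and 30.0% between the diploid lines. Among the 13, Sox1 1438729_at (0.93, limma adjusted p = 0.0154) and Pax6 1419271_at (1.18, limma adjusted p = 0.0138) were then higher in EpiSC-2 of the haploid lines, and Olig2 alone changed between the diploid lines.

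**Figure D3:**
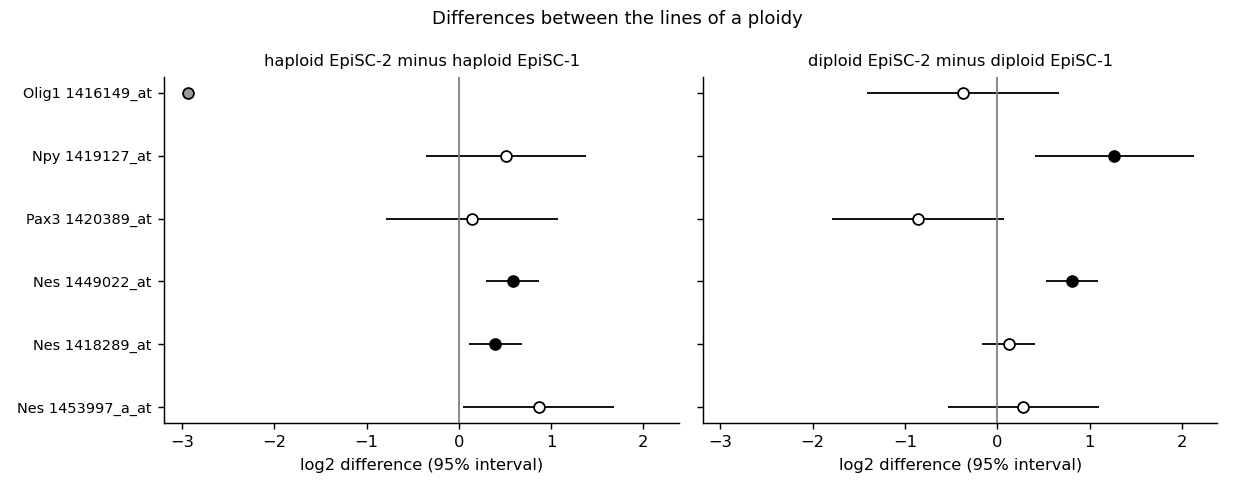
Differences between the lines of a ploidy (EpiSC-2 minus EpiSC-1) for the 6 probe sets above the limit, on the log2 scale, with 95% intervals. Filled points passed the test, open points did not, and the grey point is Olig1 between the haploid lines, which was not tested. Nes 1449022_at lies above 0 in both panels, and Npy lies clear of 0 between the diploid lines.

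The promoters were read from RefSeq for GRCm38.p6, which is the C57BL/6J reference and not the sequence of these strains. Windows of 250 bases before an annotated start were at hand for 7 of the 9 genes, 9 windows in all, and none for Olig1 or Pax3. Npy (chr6:49822460-49822709, + strand) stands for genes low in haploid cells, Olig2 (chr16:91225300-91225549, + strand) for one high in a single line, and Sox1 (chr8:12395269-12395518, + strand) for genes higher in haploid cells. Capitals mark CG dinucleotides, the sites of DNA methylation.
Npy: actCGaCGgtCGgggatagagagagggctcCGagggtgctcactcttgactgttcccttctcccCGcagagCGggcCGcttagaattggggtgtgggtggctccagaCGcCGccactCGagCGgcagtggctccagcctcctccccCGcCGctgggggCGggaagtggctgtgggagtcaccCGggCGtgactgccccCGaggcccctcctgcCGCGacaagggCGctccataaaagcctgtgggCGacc
Olig2: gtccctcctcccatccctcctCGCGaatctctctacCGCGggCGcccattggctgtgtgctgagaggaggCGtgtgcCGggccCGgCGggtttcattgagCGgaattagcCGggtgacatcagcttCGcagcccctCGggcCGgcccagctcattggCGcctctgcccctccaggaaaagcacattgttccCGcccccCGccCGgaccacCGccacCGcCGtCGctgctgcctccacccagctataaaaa
Sox1: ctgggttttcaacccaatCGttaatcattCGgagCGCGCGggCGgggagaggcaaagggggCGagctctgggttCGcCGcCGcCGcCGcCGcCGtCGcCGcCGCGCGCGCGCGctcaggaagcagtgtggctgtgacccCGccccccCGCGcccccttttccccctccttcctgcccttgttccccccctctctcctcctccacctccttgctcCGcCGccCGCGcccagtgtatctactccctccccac
All 9 windows were CG-rich, whichever way the gene moved: they held 15 to 32 CG dinucleotides, against a median of 6 over 32851 windows, of which 27.3% held at least 15. Npy held 21, Olig2 22 and Sox1 29. Other short motifs were searched on both strands. The sequence TATAAA was in the Olig2 window and no other of the 9, beside 12.4% of all windows. The sequence CCAAT was in those of Olig2, Npy, Sox1, Hes5 and 1 of Pax6, beside 33.9% of all windows. The sequence TGGGAA, the core of the RBPJ site through which Notch acts, was in those of Hes5 and Lhx2, beside 21.6%. The sequence CANNTG, the E-box bound by helix-loop-helix factors, reads the same on both strands and was in those of Hes5 and 1 of Pax6, beside 66.2%. A match describes letters in a window and not binding.

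The genes beside Olig1 and Npy were read to see whether whole stretches moved, a choice made after their values were seen. They were the nearest 3 on each side among protein-coding genes with a probe set of their own on the array. Any other genes between them were skipped. On one side of Olig1 lie Olig2, 4932438H23Rik and Paxbp1, with Paxbp1 at -0.09 haploid minus diploid (log2, limma adjusted p = 0.764) and 4932438H23Rik under the limit for testing. On the other side, Ifnar2 (0.78, limma adjusted p = 0.0389) and Il10rb (2.01, limma adjusted p = 0.0139) were higher in haploid cells, and Ifnar1 was not past the threshold (0.70, limma adjusted p = 0.0619). None of these 4 tested neighbours of Olig1 was lower past the threshold. Of the 3 such genes on each side of Npy, Gsdme was lower in haploid cells (-0.91, limma adjusted p = 0.0111). Ccdc126, Fam221a, Mpp6 and Osbpl3 were between -0.22 and 0.55 with limma adjusted p of 0.337 or more, while Stk31 was under the limit.

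Other genes of the neural program were grouped in 7 lists that exclude the 9 genes and were drawn up with earlier results of these data known. Of the 157 listed genes on the array, 87 were above the limit and were tested for haploid minus diploid in a limma fit of 11105 genes with the line as a random block. The limit was set on the mean over all arrays, so some genes entered through the ploidy in which they were high. The counts include such genes, and their folds are uncertain in size. In haploid cells 27 rose and 8 fell, while 52 did not pass, beside 9.69% of all genes that rose and 7.54% that fell. The median log2 difference was 0.28, against 0.00 over all genes. With the 2 lines of each ploidy averaged and used as the units, 10 rose and 0 fell by limma, beside 224 higher and 101 lower of all 11105 genes. At an unadjusted p under 0.05 (limma), 28 list genes were higher and 8 lower, and no share over all genes was taken for these. Of the 10 list genes that rose with line means, 8 were in the neural plate and progenitor list and 2 in the neural crest and border list, and the other 5 lists had 0 by limma.

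The neural plate and progenitor list had the most changes, with 14 of 27 tested genes higher, 4 lower and a median of 0.84. Among the higher genes, Zic1, Meis2, Gbx2 and Zeb2 had diploid means under 62.6 in both diploid lines. The higher count was 8 with line means and 5 with all probe sets of a gene averaged. The lower count was 2 with the replicate block, and 2 without diploid EpiSC-1 replicate 1 or 2, diploid EpiSC-2 replicate 3, or haploid EpiSC-1 replicate 2 or 3. Ncam1, a neural cell adhesion molecule, averaged 2091 in haploid EpiSC-2, 2371 in haploid EpiSC-1, 172 in diploid EpiSC-2 and 118 in diploid EpiSC-1, a log2 difference of 3.98 (limma adjusted p = 2.35e-06). The haploid and diploid arrays did not overlap for it or for the next genes of the list. Cdh2, N-cadherin, rose by 1.55 (limma adjusted p = 2.35e-06) and Sox2, a SoxB1 factor shared by pluripotent and neural progenitor cells, by 1.85 (limma adjusted p = 2.81e-06). Sox2 and Otx2 are in both this list and the EpiSC markers. Zfp521, a zinc finger factor of neural conversion, rose by 2.05 (limma adjusted p = 1.03e-04). Ncam1 and Cdh2 are also expressed by mesenchymal cells, and the fibroblast feeder markers were higher in the haploid lines (7 of 10 tested higher, none lower, median 3.82). The part of such cells in the differences of this list was not tested.

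The neural crest and border list, to which Pax3 is related, had 4 of 6 tested genes higher, none lower and a median of 2.14. Snai2, a repressor of epithelial genes in migrating crest, averaged 1426 in haploid EpiSC-2, 2107 in haploid EpiSC-1, 86.4 in diploid EpiSC-2 and 48.1 in diploid EpiSC-1 (log2 difference 4.75, limma adjusted p = 7.33e-08). Twist1, a helix-loop-helix factor of crest and mesoderm, rose by 4.21 (limma adjusted p = 0.00128), Ets1 by 1.93 (limma adjusted p = 0.00241) and Tfap2c, which also acts in trophoblast and germ cells, by 2.35 (limma adjusted p = 0.0327). Twist1 averaged 62.0 in diploid EpiSC-2 and 31.5 in diploid EpiSC-1, both under 62.6, so its fold is uncertain in size. With line means Ets1 (limma adjusted p = 0.131) and Tfap2c (0.180) no longer passed, and Tfap2c also failed with the replicate block (0.0502), without line haploid EpiSC-1 (0.209) and without line diploid EpiSC-1 (0.157). Snai2 and Twist1 are mesenchymal genes as well, and 7 of the 10 tested feeder markers rose with them. Whether feeder cells had a part in these differences was not tested.

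In the Notch list, 3 of 22 tested genes rose and 2 fell, with a median of 0.07. Adam10, the protease that cleaves Notch receptors, rose by 1.33 (limma adjusted p = 9.93e-05), the ligand Jag1 by 1.04 (limma adjusted p = 0.00501) and Rbpj, the DNA-binding partner of the cleaved receptor, by 0.66 (limma adjusted p = 0.0233). The ligand-like Dll3 fell by 1.06 (limma adjusted p = 0.0261). When all probe sets of a gene were averaged, Adam10 (limma adjusted p = 0.152) and Jag1 (0.105) no longer passed. With line means none of these 4 genes passed (limma adjusted p from 0.0615 for Adam10 to 0.263 for Rbpj), and Rbpj also failed with centred arrays (0.0586). The 2 lower genes became 1 without any one replicate of diploid EpiSC-1, without haploid EpiSC-1 replicate 1, and without haploid EpiSC-2 replicate 2 or 3. Of the target Hes5 itself only low signals were seen, as above. Other genes of the list were above the limit: Hes1 (0.20, limma adjusted p = 0.655), Hey1 (-0.36, 0.630) and Nrarp (-0.37, 0.599) did not pass. Dtx1 was the other lower gene (-1.25, limma adjusted p = 0.0426).

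Of the dorsoventral patterning list, 3 of 10 rose and none fell (median 0.33): Gli2, an effector of Hedgehog signalling, by 1.61 (limma adjusted p = 0.00232), Msx1, a dorsal factor, by 1.86 (limma adjusted p = 0.0285) and Irx5 by 1.50 (limma adjusted p = 0.0392), the last passing in 13 of 24 alternative settings. Msx1 averaged 50.7 in diploid EpiSC-2 and 44.3 in diploid EpiSC-1, both under the limit. With line means none of the 3 passed (limma adjusted p = 0.103 for Gli2, 0.0657 for Msx1 and 0.108 for Irx5). Without line haploid EpiSC-2 this list had 3 lower genes, beside 1327 lower of all 11105 genes. Chosen after their values were seen, the ventral genes Shh, Foxa2 and Lhx1 did not pass between the ploidies, and their means in the haploid lines, not tested here, lay far apart. Shh averaged 877 in haploid EpiSC-2, 38.6 in haploid EpiSC-1, 236 in diploid EpiSC-2 and 407 in diploid EpiSC-1, and Foxa2 and Lhx1 were likewise lowest in haploid EpiSC-1.

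Of the proneural and neuronal list, 1 of 10 rose and 2 fell (median -0.06). Gap43, a growth cone protein, rose by 2.84 (limma adjusted p = 0.00473), the neurofilament gene Nefl fell by 1.81 (limma adjusted p = 5.12e-04) and Snap25, of the synaptic vesicle machinery, fell by 1.79 (limma adjusted p = 0.0283). With line means Gap43 (limma adjusted p = 0.0907), Nefl (0.0778) and Snap25 (0.196) did not pass, and without line haploid EpiSC-1 neither Gap43 (0.0526) nor Snap25 (0.142) did. By limma, 0 of the 7 tested oligodendrocyte and astrocyte genes passed (median 0.34), with 1 higher and 1 lower at an unadjusted p under 0.05. Without diploid EpiSC-2 replicate 1 or replicate 3, 1 passed as higher.

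Among the receptors, relatives and processing enzymes of neuropeptide Y, 2 of 5 tested genes rose, none fell and the median was -0.43. Both are enzymes that process peptide hormones: Cpe, which trims precursors, rose by 1.11 (limma adjusted p = 7.37e-05) and Pam, which amidates them, by 1.44 (limma adjusted p = 4.26e-04). Cpe did not pass when its probe sets were averaged (limma adjusted p = 0.652), and with line means neither Cpe (0.0666) nor Pam (0.0726) passed. The receptor genes Npy1r, Npy2r, Npy4r, Npy5r and Npy6r were all under the limit, with group means no higher than 41.4.

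**Figure D4:**
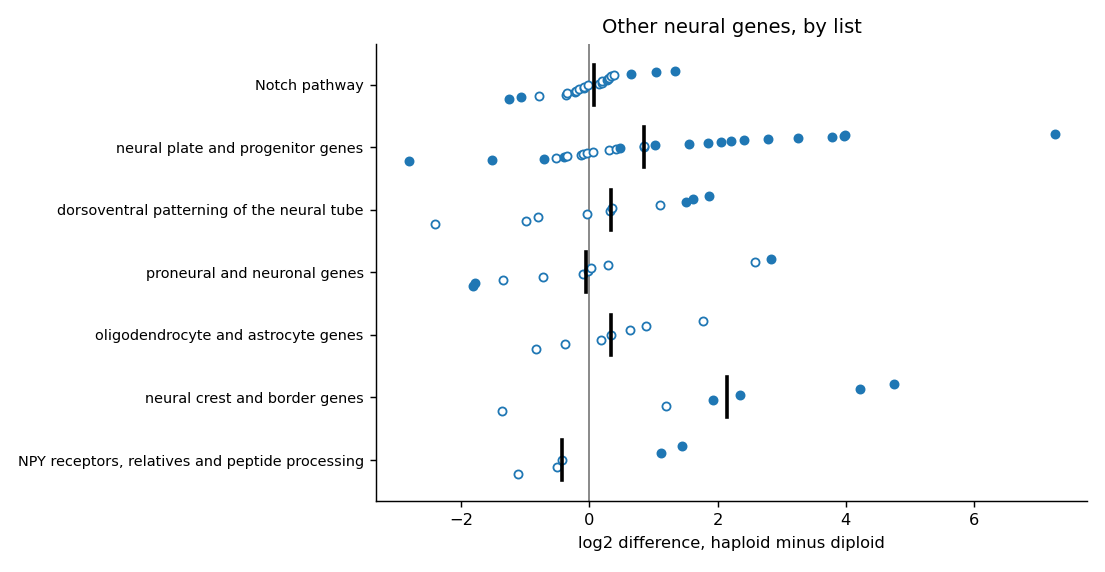
Haploid minus diploid log2 difference of every tested gene in the 7 neural lists, with filled points for genes that passed the test and a black bar at the median of each list. The neural crest and border list and the neural plate and progenitor list have medians of 2.14 and 0.84, and the other medians lie between -0.43 and 0.34.

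The genes whose log2 profile over the 12 arrays was nearest to that of a member, after each was centred on its own mean, were found by root mean square difference. For Olig1 these were Eda2r (1.25), Spon1 (2.07) and Dcxr (2.09), and for Npy they were Spon1 (1.22), Eda2r (1.40) and Ocln (1.52). For Pax3 they were Ptn (0.48), Nr2f2 (0.48) and Jam2 (0.52), and for Nes they were Zmynd11 (0.18), Pou3f1 (0.18) and Mcl1 (0.19). Eda2r averaged 19.4 in haploid EpiSC-2, 36.7 in haploid EpiSC-1, 1120 in diploid EpiSC-2 and 673 in diploid EpiSC-1, which has the haploid order of Olig1 and the diploid order of Npy. Pou3f1, a POU factor of the epiblast and early neural tissue, averaged 3511 in haploid EpiSC-2, 2545 in haploid EpiSC-1, 4526 in diploid EpiSC-2 and 2356 in diploid EpiSC-1. Within each ploidy the line named EpiSC-2 was the higher one, as for Nes, though the shared name does not link the lines. The profiles share their arrays and lines, so their likeness is a description.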

How the data were processed

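Total RNA of 12 samples was labelled with biotin and hybridised to arrays, per the labels' protocols. The authors made the signal intensity of each probe set with MAS5, per the submitters' processing notes, and deposited it on a linear scale; the MAS5 version is not given in the sources used here. Neither detection calls nor scan dates entered, so whether a low signal exceeds background is unknown, and precision is limited by the few arrays per line. Groups were taken from the sample titles.

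The 64 control probe sets were dropped. Of the rest, 34945 had 1 gene symbol, 932 several and 9160 none, and those with several or none were left out. Values were log2 signals without an offset (lowest signal 0.0453) or further normalization. Probe sets with a mean log2 signal of at least 5.97 (a signal of 62.6), the median of all, were tested, and the brightest probe set stood for a gene in the lists. Tests used limma 3.58.1 in R 4.3.3 (eBayes, with the prior variance trended on intensity), were two-sided, and called an adjusted p under 0.05. Haploid and diploid cells were compared with duplicateCorrelation (statmod 1.5.0) taking the 4 lines as random blocks, at an estimated correlation of 0.806. The steps were tested on simulated data.

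The members and lists were chosen with earlier results of these data known. Named were every member, up to 4 called genes of each neural list with the lowest p, and the 3 nearest profiles of each member above the limit. Replicate numbers were not taken to pair arrays. Residuals of same-numbered arrays of different lines correlated at -0.05 to 0.08 over 18 pairs. Those of differently numbered arrays correlated at -0.06 to 0.03 over 36 pairs. Promoter windows came from RefSeq (GRCm38.p6).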

Additional observations from a re-analysis of the deposited data

How the results depend on the processing

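Alternative settings were an offset of 16, no signal limit, a stricter limit, quantile normalization, arrays centred on their medians, each array left out, line means, all probe sets of a gene averaged, no intensity trend, the replicate number as a block and, added after the data had been seen, each line left out, only one ploidy's arrays, and the offset together with no limit. No called result reversed. Between the haploid lines, the 2 changed member probe sets became 1 with the brightest probe set of each gene, 1 with no intensity trend, 3 with quantile normalization, with centred arrays or with the haploid arrays alone, and 1 to 4 with an array left out. Between the diploid lines the count stayed at 2 to 3, beside shares of 29.7% (no signal limit) to 59.8% (stricter limit) of all probe sets. Of the list genes, 35 changed (27 higher, 8 lower). With line means as the units there were 10, all higher, and 0 lower, and with all probe sets averaged 19 (15 higher, 4 lower). Over all genes, line means gave 224 higher and 101 lower of 11105, and averaged probe sets 858 higher and 745 lower of 10061. The 8 lower list genes became 4 without line haploid EpiSC-1, 5 without line diploid EpiSC-1, 12 without line haploid EpiSC-2, 12 with no signal limit, and 5 to 8 with an array left out. Over all genes the lower count of 837 became 695 without line haploid EpiSC-1, 902 without line diploid EpiSC-1 and 1327 without line haploid EpiSC-2. It was 1463 of 18193 genes with no signal limit, and 742 to 800 with an array left out. Of the 20 named list genes, Cdh2, Sox2, Snai2 and Twist1 passed in all 24 alternatives and Ncam1 in the 23 that gave it a value, which leaves out averaged probe sets. With the replicate block, 2 member probe sets changed between the haploid lines and 2 between the diploid lines, beside 49.8% and 53.4% of all probe sets. The list genes called with it were 31 (25 higher, 6 lower), beside 936 higher and 715 lower of all 11105 genes. Centring the arrays moved the median of all genes by -0.12, and 42.8% of called genes were then higher (812 against 1086 lower), against 56.2% (1076 against 837); the lists then had 23 higher and 8 lower. Of the 19 member differences between the ploidies, 15 kept their sign in all 15 alternatives. Folds of members with signals under 62.6 shrank with the offset, and with 2 lines per ploidy, each ploidy of its own strain, ploidy and strain cannot be told apart.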
